A study of Mus musculus with 2 samples.

Results

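Cytosolic ribosomal protein genes, and the paralogs that carry a ribosomal protein symbol, are described here in CH12.LX, a B-cell lymphoma line from mouse. Members were the protein-coding genes whose GENCODE mouse symbol begins with Rpl or Rps followed by a digit, a or p, leaving out the S6 kinase genes and symbols that end in -ps and a digit. The rule found 86 genes among the 42462 genes of the deposited tables with an entry in the reference, of which 21474 were protein-coding. By role they were 46 core genes of the large subunit, 31 core genes of the small subunit, 8 paralogs and Rps19bp1, which encodes a protein that binds S19 and is no part of the ribosome. The rule misses genes that also encode ribosomal proteins under other names, such as Rack1 and Fau.

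CH12.LX is an established line that the labels call the analog of the human line GM12878, and its strain is B10.H-2aH-4bp/Wts. The tables hold 2 libraries, biological replicate 2 with 23586580 expected counts and replicate 1 with 24469094, from separate biosamples, with no treatment named. The labels call the assay total RNA-seq and elsewhere polyA+ RNA over 200 nt, and which of them holds was not tested. With a single group there is no comparison between conditions, so the values below are descriptions with no test. Levels are in TPM, which corrects for transcript length and sums to the same total in each library, and each error is the SD over the 2 libraries.

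Each cytosolic ribosome has a small subunit, which reads the mRNA, and a large subunit, which joins the amino acids, and each core ribosomal protein is present once per ribosome apart from the stalk proteins P1 and P2. Mammalian ribosomal protein mRNAs are known for a 5′ terminal oligopyrimidine (TOP) tract, a C at the first base followed by a run of C and T (U in the RNA), through which mTOR and the protein Larp1 control their translation. Mammalian genomes also hold many processed pseudogenes of these genes, intronless copies made from their mRNAs. Such copies can take reads that come from the parent gene, since short reads of identical sequence cannot be told apart.

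Ribosomal protein genes stood among the most abundant mRNAs of the line. In both libraries 84 of the 86 members reached 1 TPM, against a background of 45.9% of all protein-coding genes. At 100 TPM there were 81 members (background 5.88%), and at 1000 TPM there were 57 (background 0.508%). Their median was 1719 TPM in replicate 2 and 1681 TPM in replicate 1, a mean of 1700 ± 26.4 TPM, beside a median of 19.1 ± 0.0495 TPM for protein-coding genes at 1 TPM or more. The members took 16.0% of the TPM of replicate 2 and 16.9% of that of replicate 1, but 7.20% and 7.50% of the expected counts of replicates 2 and 1, since their transcripts are short. All 7 B-cell markers reached 1 TPM, and 0 of 3 T-cell, 0 of 3 myeloid and 0 of 3 stromal and epithelial markers did so in both libraries. Those 3 lists summed to at most 1.40 TPM in replicate 2 and 1.20 TPM in replicate 1, and Cd3e, Thy1 and Cd14 had 0 counts. In bulk RNA, fewer cells of a type and less RNA per cell cannot be told apart.

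The large subunit genes had 31 of 46 members at 1000 TPM or more in both libraries, and the small subunit genes 24 of 31. The median large subunit gene stood at 1719 TPM in replicate 2 and 1746 TPM in replicate 1, and the median small subunit gene at 1972 TPM and 2104 TPM in the same libraries. The ratio of the large to the small subunit median was 0.872 in replicate 2 and 0.830 in replicate 1, a mean of 0.851 ± 0.0296. It was below 1 in both libraries, and it moved to 0.991 ± 0.0366 once the sequence copies described below were added to their genes. The core genes were alike in level: the ratio of their upper to their lower quartile was 2.82 ± 0.0118, beside 7.13 ± 0.256 for other protein-coding genes at 1 TPM or more. Adding the copies brought that ratio to 2.21 ± 0.0719.

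**Figure D1:**
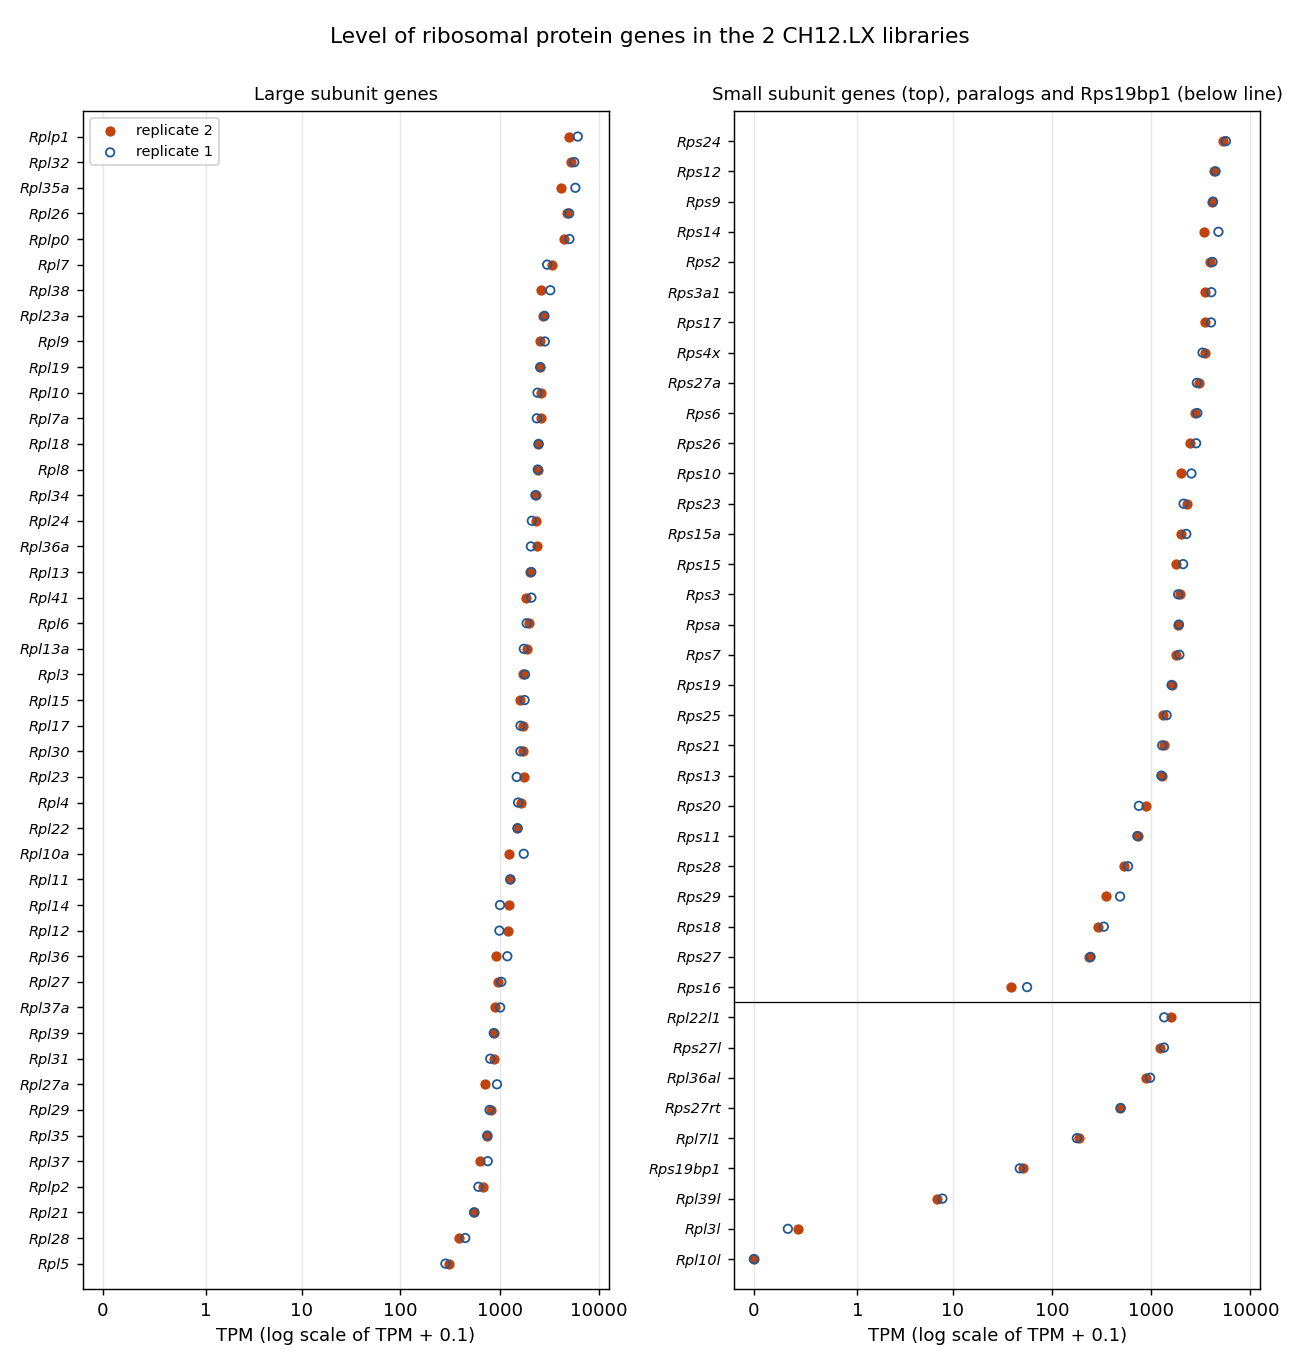
Level of the members reported here in TPM (log scale of TPM + 0.1), filled points for replicate 2 and open points for replicate 1, with large subunit genes on the left and small subunit genes, paralogs and Rps19bp1 on the right. The core genes shown lie above 100 TPM in both libraries except Rps16, which lies apart at 38.4 and 56.3 TPM, and Rpl3l and Rpl10l lie at or near 0.

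The highest member by mean TPM was Rplp1 (ENSMUSG00000007892.7, chromosome 9, 61913284 to 61914542, minus strand), which encodes a stalk protein that recruits translation factors. It stood at 5012 TPM in replicate 2 and 6105 TPM in replicate 1. Rps24, a small subunit gene mutated in some human Diamond-Blackfan anaemia, had 5351 TPM in replicate 2 and 5668 TPM in replicate 1. Rpl32 had 5272 TPM in replicate 2 and 5628 TPM in replicate 1. Rplp1 was the lowest of these 3 genes in replicate 2 and the highest in replicate 1, so its place is not settled. Rps24 stood above Rpl32 in both libraries, by less than the SD of either gene. Rpl35a, another gene of that human anaemia, had 4145 TPM in replicate 2 and 5773 TPM in replicate 1, the widest gap in TPM among the 10 highest core genes. Rpl26, whose protein lies beside the exit tunnel, had 4735 TPM in replicate 2 and 4999 TPM in replicate 1. Rplp0, the base of the stalk, had 4432 TPM in replicate 2 and 5035 TPM in replicate 1. The next 4 core genes were all of the small subunit: Rps12 at 4400 ± 91.7, Rps9 at 4166 ± 62.1, Rps14 at 4089 ± 960.0 and Rps2 at 4031 ± 176 TPM, 4 levels that differed by less than the SD of Rps14. Rps9 and Rps2 encode proteins of the mRNA entry channel, and RPS14 is the human gene lost in the 5q deletion of myelodysplastic syndrome.

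The lowest core gene was Rps16 (ENSMUSG00000037563.10, chromosome 7, 28350652 to 28353155, plus strand), whose protein reaches the tRNA that holds the growing chain, at 38.4 TPM in replicate 2 and 56.3 TPM in replicate 1. It held 330 expected counts in replicate 2 and 502 in replicate 1, and it was the only core gene below 100 TPM. The gene and its 3 copies, found as described below, together stood at 46.3 TPM in replicate 2 and 64.0 TPM in replicate 1. Rps27, which encodes a zinc-finger protein, had 239 TPM in replicate 2 and 246 TPM in replicate 1. That level rests on 163 and 175 counts and on a measured transcript of 255 nt with an effective length of 34.0 and 34.1 nt in replicates 2 and 1, so a small count becomes a large TPM. Rpl5 had 310 TPM in replicate 2 and 284 TPM in replicate 1, and Rps18 had 293 TPM in replicate 2 and 335 TPM in replicate 1. The order of these genes changed between the libraries.

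The start sites of the genes were compared for the letters of the TOP tract, which the rule did not use. RefSeq's table for GRCm38.p6, the assembly also named mm10, held 78 start sites for 66 of the 86 symbols, and a gene can have several. The start was C at 23 of 78 member starts (29.5%), against 16.3% of all 32851 starts in the table and 14.2% of 9965 starts of other expressed protein-coding genes. A C at the start followed by at least 4 letters C or T stood at 14 member starts (17.9%), against 2.51% of all starts and 2.15% of those of other expressed genes. With the C allowed up to 3 bases either side of the start, such a run was found at 34.6% of member starts and 11.5% of all starts. The longest run of C or T within 25 bases of the start had a median of 7 letters at member starts and 5 letters at all starts. Runs of 8 letters or more stood at 43.6% of member starts and 19.7% of all starts. These are annotated starts, and where CH12.LX begins its transcripts was not measured.

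The first set of sequences shows members with the C and its run at the annotated start, each given from 10 bases before the start to 20 bases from it, with the longest run of C or T in the window in capitals. The windows lie at chr16:33056472-33056501 (plus strand) for Rpl35a (1 of its 3 annotated starts), chr14:18270967-18270996 (minus) for Rpl15, chr17:27635225-27635254 (minus) for Rps10, chr7:4792955-4792984 (plus) for Rpl28 and chr17:33955646-33955675 (minus) for Rps18.
Rpl35a: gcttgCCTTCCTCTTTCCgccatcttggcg
Rpl15: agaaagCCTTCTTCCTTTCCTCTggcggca
Rps10: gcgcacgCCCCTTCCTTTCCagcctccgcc
Rpl28: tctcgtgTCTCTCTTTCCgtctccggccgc
Rps18: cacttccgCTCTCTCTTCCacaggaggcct

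Genes of this set differed in level. Rpl35a, with its run of 13 letters, stood at 4959 ± 1151 TPM, while Rpl28, with 11 letters, stood at 420 ± 41.3 TPM and Rps18, also with 11, at 314 ± 29.3 TPM. With the sequence copies described below, Rps18 stood at 1781 ± 29.0 TPM and Rpl28 at 550 ± 48.5 TPM. The second set shows highly and lowly expressed members without such a run at the annotated start, at chr11:68901556-68901585 (plus) for Rpl26, chr5:115559457-115559486 (plus) for Rplp0 and chr7:28350679-28350708 (plus) for Rps16.
Rpl26: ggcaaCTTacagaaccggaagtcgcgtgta
Rplp0: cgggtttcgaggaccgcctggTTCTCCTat
Rps16: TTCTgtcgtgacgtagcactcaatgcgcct

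Rpl26 had a longest run of 3 letters in its window and stood at 4867 ± 186 TPM, among the highest members. The window of Rplp0 has its longest run, of 7 letters, only after the start. Rps16, the lowest core gene, had a run of 4 letters that lay before the start.

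Other letters near the starts were counted in the same table. CTTTCC was searched within 25 bases of the start, on the strand that reads like the mRNA. It stood at 12 member starts (15.4%), against 2.46% of all starts and 2.34% of those of other expressed genes. It is made of C and T and so overlaps the runs above, as in Rpl15, Rps10 and Rpl28. CGGAAG, the core letters bound by ETS factors, searched on both strands of the whole window from 250 bases before to 50 after the start, stood at 47 member starts (60.3%), against 16.9% of all starts and 34.1% of those of other expressed genes. A match names letters and no bound factor. The first base of the protein-coding transcript with the most TPM, taken from GENCODE, gave like shares: it was C in 37.6% of 85 members and 17.1% of 9748 other genes, and C followed by at least 4 letters C or T in 14.1% of members and 2.20% of other genes. The annotations largely named different genes. The run stood at a RefSeq start of 14 genes and at the GENCODE start of 12, of which 8 have a RefSeq start in the table. Rps10, Rps15a, Rps21 and Rps27rt had it in both, 28.6% of the RefSeq genes and 33.3% of the GENCODE genes. Of the 5 genes of the first set printed above, Rps10 had the run in GENCODE and the other 4 did not.

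Among the proteins of the stalk, which binds the GTPase factors of translation, the levels were unequal. Rplp1 and Rplp0 stood at 5559 ± 773 and 4733 ± 426 TPM. Rplp2, whose protein pairs with that of Rplp1, had 683 TPM in replicate 2 and 609 TPM in replicate 1, and Rpl12, at the stalk base, had 1220 TPM in replicate 2 and 991 TPM in replicate 1. Both libraries placed Rplp2 lowest of the 4. Its copy held 0 TPM in both, so adding copies left Rplp2 at that level, and Rpl12 stood at 2529 ± 122 TPM with its 10 copies.

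The particle of 5S RNA, which docks on the large subunit and can bind the p53 regulator Mdm2 when free, holds the proteins of Rpl5 and Rpl11. Rpl11 stood at 1266 ± 12.3 TPM and Rpl5 at 297 ± 19.0 TPM. With copies added the order turned round, to 3501 ± 287 TPM for Rpl5 and 2068 ± 36.9 TPM for Rpl11. Mdm2 itself was at 82.8 ± 4.98 TPM and its relative Mdm4 at 51.6 ± 0.707 TPM.

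Of the 8 genes whose proteins line or surround the exit tunnel of the nascent chain, the median was 1678 TPM in replicate 2 and 1575 TPM in replicate 1. Rpl26 was the highest, followed by Rpl23a at 2770 ± 69.7 and Rpl19 at 2560 ± 8.51 TPM. Rpl17, at the tunnel rim, stood at 1673 ± 78.1 TPM and Rpl4, which reaches into the tunnel, at 1579 ± 67.5 TPM, a gap about the size of their errors. Rpl39, a small protein within the tunnel wall, stood at 873 ± 3.69, Rpl31 at 838 ± 51.9 and Rpl35 at 749 ± 0.841 TPM. The order changed once sequence copies were added: Rpl23a then stood at 5580 ± 22.2 TPM, above Rpl26 at 5074 ± 198 TPM. Rpl35, the lowest of the 8 by its annotated gene, stood at 1943 ± 122 TPM with its copies, above Rpl4 at 1597 ± 67.3, Rpl31 at 1508 ± 196 and Rpl39 at 1485 ± 2.03 TPM.

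Rack1 and Fau, core genes outside the symbol rule, lay within the range of the members. Rack1, a scaffold on the small subunit, had 3737 TPM in replicate 2 and 4090 TPM in replicate 1. Fau, which encodes a ubiquitin-like protein fused to a small subunit protein, stood at 729 ± 32.4 TPM. Rps27a, the member that encodes ubiquitin fused to a small subunit protein, stood higher than Fau in both libraries, at 2961 ± 94.7 TPM. Rps19bp1 stood at 51.0 TPM in replicate 2 and 47.5 TPM in replicate 1.

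Sequence copies of the members were searched among the other 42376 measured features of the reference by aligning each to the member mRNAs, and a copy had at least 95% identity over at least 50% of its length and 100 nt. The search found 476 copies, 467 of them annotated as pseudogenes, and 73 of the 77 core genes had 1 or more. The copies held 4.71% of the TPM of replicate 2 and 4.83% of that of replicate 1, and 1.41% and 1.42% of the expected counts of the same libraries. Of the copies 271 were under 1 TPM in both libraries, and 137 of these had 0 counts in both. The 66 copies at 100 TPM or more in both libraries had a median identity of 99.6% to their member and at least 98%, whereas those under 1 TPM had a median identity of 96.8%. A level on a copy thus came with near identity to an expressed gene, and whether its reads came from the copy or from the gene was not tested.

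Copies held more TPM than the annotated gene in both libraries for 7 core genes and over 10% of the sum in both for 41, while for 14 they held under 1%. Rpl27, a large subunit gene, had 953 TPM in replicate 2 and 1037 TPM in replicate 1, and the pseudogene Rpl27-ps3, 100% identical over 411 nt, had 6473 TPM in replicate 2 and 6866 TPM in replicate 1. With its copies Rpl27 stood at 7670 ± 338 TPM, above every other member. For Rpl5 the copies made 91.5% ± 0.152 of the sum, almost all of it on Gm15500, a transcribed pseudogene on chromosome 7 (114705217 to 114706235, minus strand) identical over 1018 nt, at 3386 TPM in replicate 2 and 3006 TPM in replicate 1. Copies made 82.4% ± 1.93 for Rps18, 77.2% ± 1.15 for Rpl27a, 61.4% ± 2.46 for Rpl35, 57.8% ± 2.83 for Rpl41 and 56.4% ± 4.3 for Rpl12. Of these 7, Rpl5 and Rps18 are also among the 5 lowest core genes by their annotated gene alone.

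**Figure D2:**
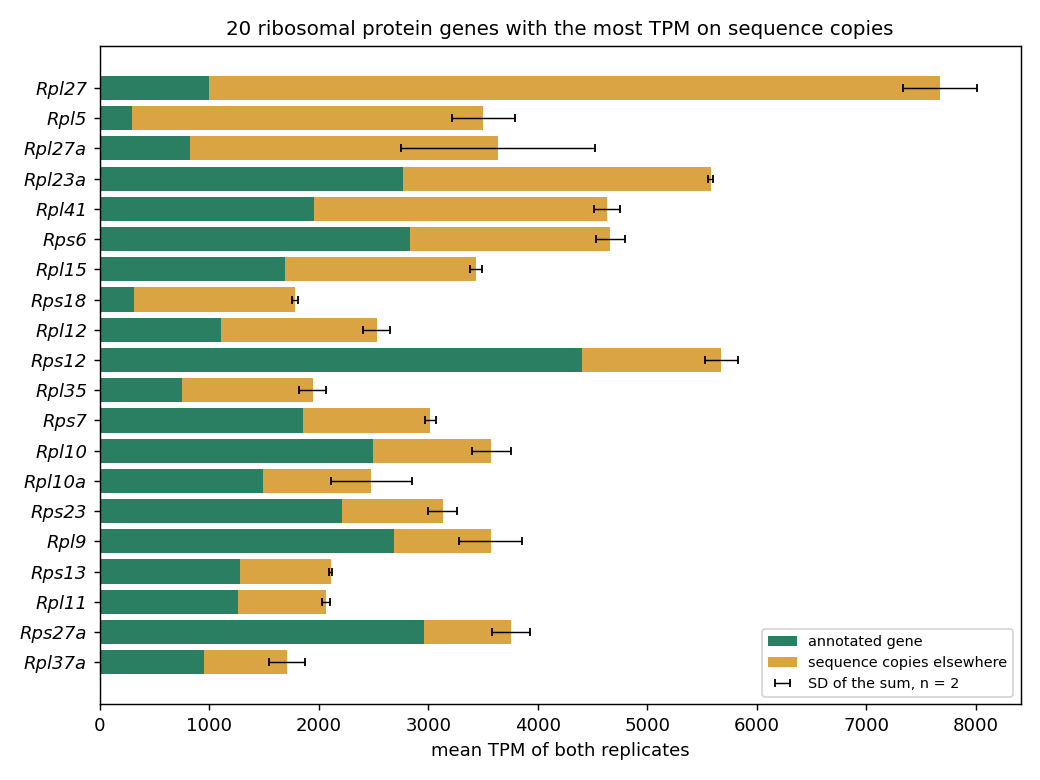
Mean TPM over both libraries of the 20 members with the most TPM on their sequence copies, with the annotated gene in green, the copies in yellow and the bar the SD of the sum (n = 2). For Rpl27, Rpl5, Rpl27a and Rps18 most of the bar lies on copies, and for Rps12 most lies on the gene.

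Of the 476 copies 9 were not annotated as pseudogenes. The lincRNA Gm10076, 99.5% identical to Rpl41, had 2723 TPM in replicate 2 and 2632 TPM in replicate 1, more than Rpl41 itself at 1829 TPM in replicate 2 and 2082 TPM in replicate 1. Gm10260, annotated as protein-coding and 99.1% identical to Rps18, had 1459 TPM in replicate 2 and 1387 TPM in replicate 1, against 293 and 335 TPM for Rps18 in the same libraries. Both features exceeded their ribosomal protein gene in each library. Gm2000, 99.6% identical to Rpl35, had 1098 TPM in replicate 2 and 1274 TPM in replicate 1. Rps12-ps3 and Rpl10-ps3, both annotated as protein-coding despite their names and identical to their parents over the aligned 494 and 740 nt, had 1225 and 1098 TPM in replicate 2 and 1307 and 1045 TPM in replicate 1. Rpl21 had the most copies, 43, which held 41.9% ± 2.33 of its sum. Rps9, Rps20 and Rps21 were among the core genes with none within the limits of the search, so no copy was added to their levels.

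The 8 paralogs ranged from the level of core genes down to 0. Rps27l, which encodes a relative of S27 known as a p53 target, had 1243 TPM in replicate 2 and 1349 TPM in replicate 1, against 239 and 246 TPM for Rps27 in the same libraries. The ratio of Rps27l to Rps27 was 5.35 ± 0.200 by TPM and 45.2 ± 1.61 by expected count, a gap that comes with the effective length of Rps27 given above. Rps27rt, a retrotransposed copy of Rps27 that is 100% identical to an Rps27 mRNA over 341 nt, had 482 TPM in replicate 2 and 494 TPM in replicate 1. Its ratio to Rps27 was 2.01 ± 0.00582 by TPM and 8.72 ± 0.0710 by expected count, and reads from the identical stretch cannot be told apart by sequence. That stretch is longer than the 255 nt counted for Rps27. Rps27rt held 1428 expected counts in replicate 2 and 1521 in replicate 1, beside 163 and 175 for Rps27. As a member it was not among the copies added to Rps27. Whether reads of Rps27 lie on Rps27rt, which would raise the ratios of both paralogs to Rps27, was not tested. Rps27l aligned to Rps27 with 76.4% identity over 254 nt, and its posterior SD, a deposited measure of uncertainty from shared reads, was 0 in both libraries.

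The start windows of this trio are shown because the retrotransposed copy carries letters of its parent's start. They lie at chr9:66946076-66946105 (plus) for Rps27l, chr9:114982720-114982749 (minus) for Rps27rt and chr3:90213629-90213658 (minus) for Rps27.
Rps27l: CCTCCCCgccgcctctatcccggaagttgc
Rps27rt: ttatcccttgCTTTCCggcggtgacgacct
Rps27: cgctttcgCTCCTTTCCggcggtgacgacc

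The windows of Rps27rt and Rps27 share a stretch of 19 letters that begins with CTTTCC, and in both the annotated start is a C followed by a run of C and T. The longest stretch shared by the windows of Rps27l and Rps27 was 4 letters.

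Rpl22l1 and Rpl22 encode related large subunit proteins, and in mice the protein of Rpl22 represses Rpl22l1. Rpl22l1 (ENSMUSG00000039221.6, chromosome 3, 28805436 to 28807424, plus strand) had 1605 TPM in replicate 2 and 1356 TPM in replicate 1, and Rpl22 had 1479 TPM in replicate 2 and 1512 TPM in replicate 1. The ratio was 1.08 in replicate 2 and 0.896 in replicate 1, a mean of 0.991 ± 0.133, so the paralog made 49.7% ± 3.37 of the pair and the 2 genes did not differ beyond their spread. With the sequence copies described above added to both genes, Rpl22l1 stood at 1793 TPM in replicate 2 and 1542 TPM in replicate 1, and Rpl22 at 1480 TPM in replicate 2 and 1513 TPM in replicate 1. The ratio was then 1.21 in replicate 2 and 1.02 in replicate 1, above 1 in both, with a mean of 1.12 ± 0.136. Of the level of Rpl22l1, 67.4% in replicate 2 and 67.5% in replicate 1 lay on the protein-coding transcript Rpl22l1-206. Rpl22l1-201 held 25.5% and 25.4% in the same libraries.

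Rpl36al, a chromosome 12 relative of the X-linked Rpl36a, had 894 TPM in replicate 2 and 979 TPM in replicate 1, against 2362 and 2057 TPM for Rpl36a in the same libraries. It made 29.8% ± 3.39 of that pair. Rpl7l1, a relative of yeast Rlp7, which acts in the assembly of the large subunit, had 190 TPM in replicate 2 and 179 TPM in replicate 1, a ratio to Rpl7 of 0.0580 ± 0.00229 by TPM and 0.154 ± 0.00819 by expected count. The 3 tissue-restricted paralogs were the lowest members, with Rpl3l and Rpl10l near or at 0 and Rpl39l at a low level. Rpl39l, which acts in mouse spermatogenesis, had 6.95 TPM in replicate 2 and 7.82 TPM in replicate 1, 0.00846 ± 0.000741 times Rpl39. Rpl3l, the heart and skeletal muscle form of Rpl3, had 3 counts in replicate 2 and 2 counts in replicate 1. Rpl10l, which acts in mouse male meiosis, had 0 counts in both, which allows up to 0.187 TPM in replicate 2 and 0.179 TPM in replicate 1 (3 counts, covering counting error only).

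**Figure D3:**
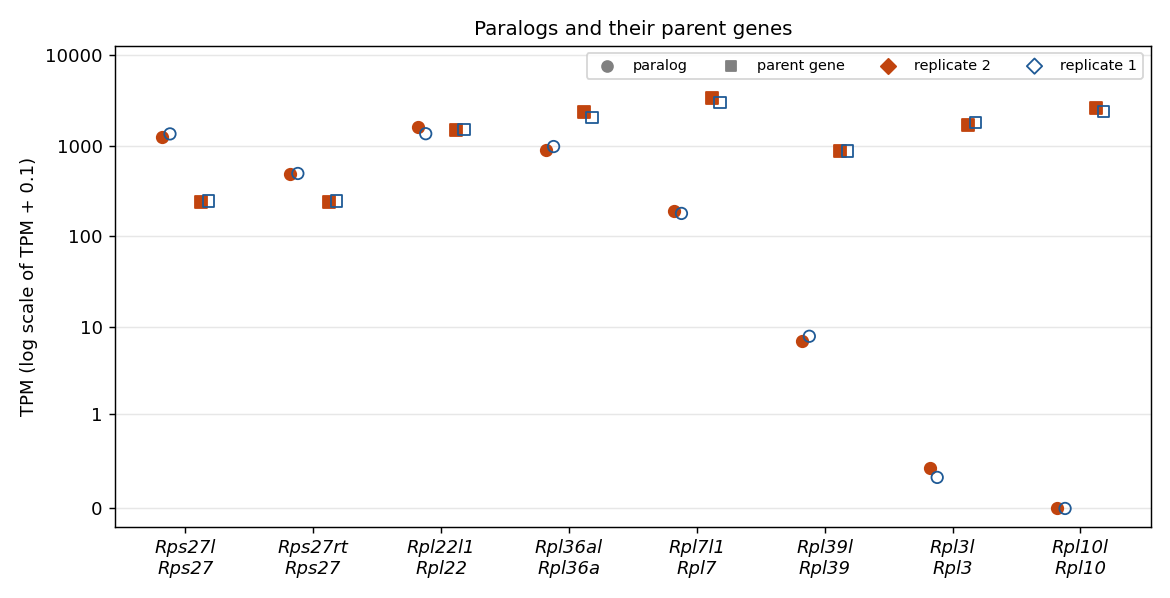
TPM (log scale of TPM + 0.1) of the 8 paralogs (circles) beside their parent genes (squares), filled for replicate 2 and open for replicate 1, ordered by the ratio of paralog to parent. Rps27l and Rps27rt lie above Rps27 in both libraries, Rpl22l1 and Rpl22 overlap, and the others lie below their parents.

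The transcript tables place the level of a gene on its annotated transcripts. Of the 85 members with any TPM, 43 had 99% or more on protein-coding transcripts in both libraries, and the median share was 99.2% ± 0.197. Summed over members, 94.0% ± 0.253 of TPM lay on protein-coding transcripts, 3.39% ± 0.359 on transcripts with a retained intron, 1.60% ± 0.264 on processed transcripts and 0.469% ± 0.0873 on targets of nonsense-mediated decay (NMD). For 9778 other expressed protein-coding genes these shares of summed TPM were 89.8%, 4.24%, 3.08% and 2.21%. The median share of those genes, and how many of them had 99% or more, were not taken.

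The share was under 90% in both libraries for 14 members. The like count among other expressed genes was not taken, so whether 14 is many or few cannot be said. The 7 lowest of the 14 are described here. Rps20 had 29.0% on its protein-coding transcript in replicate 2 and 35.0% in replicate 1, with the rest on retained-intron transcripts, chiefly Rps20-201. Its protein-coding transcript Rps20-203 is annotated at 3706 nt and held 18008 counts in replicate 2 and 19177 in replicate 1, so by count it held more than Rps20-201, with 4198 and 3310. Rpl12 had 31.6% on protein-coding transcripts in replicate 2 and 33.7% in replicate 1, and its most abundant transcript by TPM, Rpl12-201, is annotated as an NMD target, at 55.9% in replicate 2 and 52.2% in replicate 1. Rpl12 was the only one of the 14 with most of its TPM on an NMD transcript.

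Rps9 had 51.6% ± 6.19 on protein-coding transcripts and 47.9% ± 6.18 on retained-intron ones, chiefly Rps9-206, which is 378 nt long. Rpl5 had 55.2% ± 2.25 on protein-coding transcripts and 44.8% ± 2.25 on retained-intron ones. Rps6, the target of the S6 kinases, was the least even between libraries: the processed transcript Rps6-202 held 23.3% of its TPM in replicate 2 and 47.5% in replicate 1, while its total was 2740 TPM in replicate 2 and 2924 TPM in replicate 1. Rpl30 had 26.1% ± 1.38 on processed transcripts, and Rpl13a had 26.6% ± 3.43 on transcripts that the later annotation no longer holds. The 7 others had between 82.8% and 89.0% on average. All of these shares are deposited estimates for transcripts that can share exons.

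**Figure D4:**
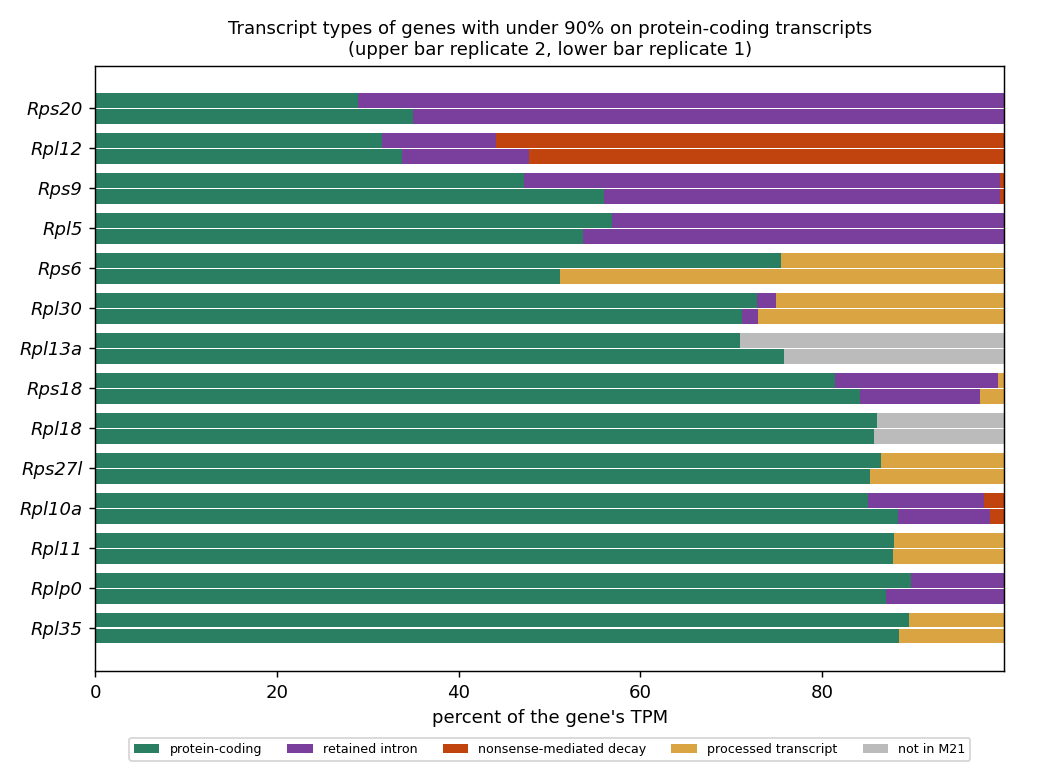
Percent of TPM by annotated transcript type for the 14 members with under 90% on protein-coding transcripts in both libraries, the upper bar of each pair for replicate 2 and the lower for replicate 1. Rps20, Rps9 and Rpl5 have large retained-intron shares, Rpl12 a large NMD share, and the processed transcript of Rps6 is larger in replicate 1.

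Many small nucleolar RNAs (snoRNAs), which guide the chemical modification of ribosomal RNA, are cut from introns of ribosomal protein genes. The annotation places 58 snoRNA genes within 30 members, all of them core genes, with 5 in Rpl4 and 4 in Rpl13a. Of the 58 snoRNA genes 52 had 0 counts in both libraries, and the highest count was 2. The like share of snoRNA genes outside the members was not taken. Their lengths are 65 to 203 nt, and 1 exceeded the labelled size selection of 200 nt. The host genes had a median of 1719 TPM in replicate 2 and 1602 TPM in replicate 1, and the 47 core genes without a snoRNA 2008 and 2104 TPM in the same libraries, a ratio of 0.809 ± 0.0670.

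Genes that act on ribosomal proteins or their mRNAs were expressed throughout, in lists chosen by function. All 13 genes of TOP mRNA control reached 1 TPM in both libraries, from Cnbp, which binds TOP mRNAs, at 704 ± 11.3 TPM to the translation repressor Eif4ebp2 at 2.96 ± 1.71 TPM. All 7 genes that escort or assemble ribosomal proteins passed, from the histone and protein chaperone Nap1l1 at 261 ± 9.25 TPM to Rrs1, a large subunit assembly factor, at 17.5 ± 0.325 TPM. All 9 genes that modify ribosomal proteins passed, from the modifier Ufm1 at 67.5 ± 6.26 TPM to the methyltransferase Mettl18 at 16.2 ± 2.05 TPM. The background for these counts is the 45.9% given above.

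The replicates were close across the members. Pearson's r of log2(TPM + 0.5) between the libraries was 0.997 over the 86 members, and Spearman's rho of TPM was 0.989. Over the 77 core genes r was 0.988 and rho 0.986. These are across genes of the same 2 libraries, which are not independent. The difference of log2(TPM + 0.5), replicate 2 minus replicate 1, could be taken for the 84 members with a mean of 20 or more counts. Its median was -0.04, beside 0.00 over all 11597 genes tested, many of which have low counts. Among the 80 members with a mean of 1000 or more counts the median was -0.03, beside 0.03 over all 4713 genes past that minimum. A gene was counted as different past 0.32 on this scale. No member was higher in replicate 2 by that measure (background 4.79%), and 9 members, 10.7%, were lower (background 8.52%). At a mean of 1000 or more counts, 0 members were higher (background 2.44%) and 8 of 80 were lower (background 2.89%). The share of lower members was thus near the background of all tested genes and above that of genes with a mean of 1000 or more counts. That minimum is a floor and does not match the members and the other genes in counts.

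The 9 were 5 large subunit and 4 small subunit genes. Rps16 fell by 0.55 on the log2 scale, with 38.4 TPM in replicate 2 and 56.3 TPM in replicate 1. Rpl10a, whose protein forms the stalk that moves spent tRNA, fell by 0.50, with 1237 TPM in replicate 2 and 1744 TPM in replicate 1. Rps14 fell by 0.48, with 3410 TPM in replicate 2 and 4767 TPM in replicate 1. These are differences between libraries of the same line, not between conditions. Rpl35a also fell by 0.48, and Rps29, a small zinc-finger protein gene, fell by 0.47, with 351 TPM in replicate 2 and 488 TPM in replicate 1. The copies of Rps29 held 0 TPM in replicate 2 and 156 TPM in replicate 1. With them its sum was 351 TPM in replicate 2 and 644 TPM in replicate 1. Those copies held only 2 expected counts in replicate 2 and 3.78 in replicate 1, so the wider gap of the sum rests on very few counts. Rpl27a, Rpl36, Rps10 and Rpl38 fell by 0.40, 0.37, 0.37 and 0.32, the last just past the threshold. On counts scaled by TMM or by median-of-ratios factors Rps10 and Rpl38 no longer passed, which leaves 7, and none passed a fold of 1.5. Of all 11597 genes tested, 878 were lower with TMM factors and 913 with median-of-ratios factors. At a fold of 1.5, 209 of them were lower and 98 higher.

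In the other direction the largest differences were 0.30 for Rpl12, 0.29 for Rpl14, 0.24 for Rpl22l1, 0.24 for Rps20 and 0.23 for Rpl23, none past the threshold. Rpl12 had 1220 TPM in replicate 2 and 991 TPM in replicate 1, and Rpl14 had 1230 TPM in replicate 2 and 1006 TPM in replicate 1. The difference of Rps20 was 0.05 on counts scaled by TMM factors, with 22500 counts in replicate 2 and 22782 in replicate 1 and an effective length of 1260 nt in replicate 2 and 1447 nt in replicate 1. Over the core genes the difference had a Spearman correlation of 0.350 with the deposited length of the gene (n = 77). The level itself had a correlation of -0.136 with length.

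**Figure D5:**
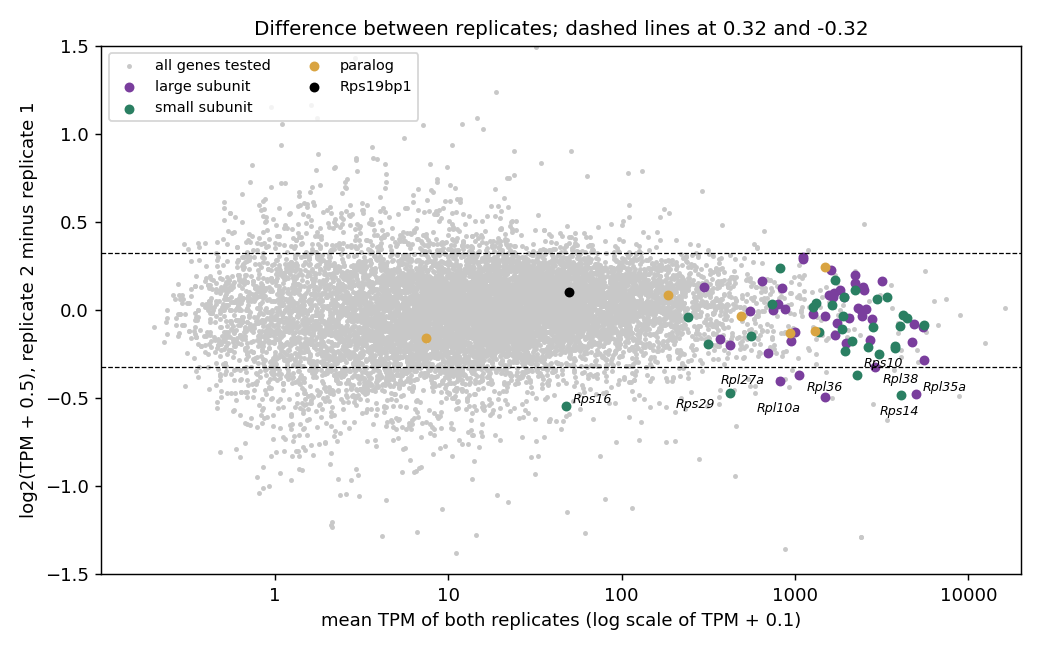
Difference between the libraries as log2(TPM + 0.5), replicate 2 minus replicate 1, against mean TPM (log scale of TPM + 0.1), with all tested genes in grey, the members coloured by group and dashed lines at 0.32 either side of 0 (13 genes lie outside the plotted range). The 9 named members lie below the lower line, and no member lies above the upper one.

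The counting model of the deposited tables gives each gene a posterior SD, a measure of how surely shared reads were divided. It was largest for Rps27, at 2.58% of its count in replicate 2 and 2.03% in replicate 1, followed by Rps16 at 1.21% and 0.897% and Rpl5 at 1.02% and 1.12% in the same libraries. No other member exceeded 1% in a library, and Rpl27 followed at 0.917% in replicate 2 and 0.840% in replicate 1. These small values stand beside the large shares on identical copies given above, and they do not say which locus the reads came from.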

How the data were processed

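RNA of CH12.LX was sequenced in 2 libraries, numbered as biological replicates by the labels. Expected counts, deposited by the authors without normalization, are estimates in which reads shared between features are divided. TPM, posterior mean TPM and FPKM were deposited per library, as was an isoform percent per transcript. The accompanying text files name mm10 with GENCODE M4 and spike-ins. What aligner, what quantification tool and whether strand was used in counting is not given in the sources used here, so overlapping and antisense genes cannot be told apart by strand. The tables hold 69691 features.

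Symbols, types and coordinates came from GENCODE M21 (42462 genes matched without version), and start sequences from RefSeq. Copies were found with blastn 2.17.0, leaving out features that overlap the parent gene. The replicate difference used a pseudocount of 0.5, which understates low genes, and a mean count of 20 or more. TMM factors came from edgeR 4.0.16 on rounded expected counts. Other steps ran in Python 3.11.15 with pandas 2.3.3. The difference step was tested on simulated data. With 1 library on each side no test was possible.

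The members and lists were chosen with earlier results of these data known. Named genes are the 10 highest and 5 lowest core genes, all other members that are no core gene, the stalk, 5S RNA and exit tunnel genes, the 5 largest differences in each direction, those with the largest posterior SD or the lowest share on protein-coding transcripts, and core genes the rule misses; a few of these are not reported here. The sequence copies, the snoRNA genes, Rps27a and the genes named with copies were chosen after their values were seen.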

Additional observations from a re-analysis of the deposited data

How the results depend on the processing

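Of 52 alternative values for the main results, 43 stayed the same and 9 moved. Same meant within the spread between the libraries, within 1.5 times for counts, and within a fixed log2 limit for the median replicate difference. For levels, shares and ratios, the value of 1 of the 2 libraries always lies within their SD of the mean. Those single-library values could not move, here or for single paralogs, and are no sign of stability. The same holds for the median replicate difference at a fold of 1.5, since the median does not use the fold. It also holds for the 0 members higher in replicate 2 at a fold of 1.5 or at a minimum of 1000 counts. The median level of members, 1700 TPM, was 1655 by posterior mean TPM and 1449 by FPKM. The members' share of TPM, 16.4%, was 7.35% of expected counts. The large to small subunit ratio, 0.851, was 0.772 by expected counts. Adding the sequence copies, an alternative chosen after seeing the data, gave a median of 2224.5 TPM, a share of 21.2% and a ratio of 0.991. The 9 members lower in replicate 2 became 0 at a fold of 1.5, a stricter threshold that can only lower the count. Of all 11597 genes tested, 209 were lower by that fold. C at the start, 29.5%, became 93.6% when allowed within 3 bases, beside 85.6% of all starts and 89.4% of those of other expressed protein-coding genes. For the other values that moved, the cause was not tested beyond these values. With a single library the median level was 1681 to 1719 TPM, the share 16.0 to 16.9%, the ratio 0.830 to 0.872, the paralogs above their parent 2 to 3, the members under 90% on protein-coding transcripts 14 to 15, and the members at 1 TPM 84. For single paralogs, 9 of 36 alternative values moved; adding copies to both paralog and parent, like the minimum of 1000 counts, was chosen after seeing the data. No core gene had a posterior SD over 5%, so leaving such genes out changed nothing. The difference between replicates needs both libraries, so leaving out a library was not run for it. No paired analysis was possible because the samples form a single group. With 2 libraries the SD is itself imprecise, and Rpl10l, Rpl3l, Rpl39l and Rps27 are the members with the fewest counts.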
